A study of Homo sapiens with 8 samples.

Results

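The 10 genes described here encode the enzymes that build purine nucleotides from small precursors and turn the product into guanine nucleotides, together with 1 enzyme that recycles purine bases. They are PPAT, GART, PFAS, PAICS, ADSL, ATIC, IMPDH1, IMPDH2, GMPS and HPRT1, taken by symbol as pathway members, and each matched 1 row of the 57992 genes in the count table. All 10 were among the 18314 genes with enough reads to be tested. The study treated KG1A and U937, 2 human acute myeloid leukaemia cell lines, with dG at 10 mM (the abbreviation is the labels' own and is not spelled out there) or with the vehicle PBS, and sequenced their mRNA. Its title concerns ribonucleotide reductase, disturbed deoxynucleotide pools and the differentiation block of these leukaemias. There were 4 groups of 2 libraries: KG1A in PBS, KG1A in 10 mM dG, U937 in PBS and U937 in 10 mM dG. All 4 groups grew in RPMI medium with 10% dialyzed FBS, a serum from which small molecules such as nucleosides have been removed, and with streptomycin and penicillin. Each group represents a single established line, and the labels give no duration of treatment. They do not state that the replicates came from different cultures, so the p-values reflect sample-to-sample spread that could be purely technical.

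De novo purine synthesis assembles the purine ring stepwise on phosphoribosyl pyrophosphate (PRPP) until inosine monophosphate (IMP) is formed. IMP is the branch point: adenine nucleotides are made from it on one side, and guanine nucleotides on the other through IMP dehydrogenase and GMP synthetase. Salvage enzymes such as HPRT1 bypass the long route by attaching a ready-made base to PRPP. Dividing cells, leukaemic cells among them, draw on these routes for DNA and RNA, and IMP dehydrogenase inhibitors have long been used against proliferating lymphocytes.

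Library totals ran from 21053724 to 31135338 counts, and the 10 genes together took 17925 to 60483 counts per library. Levels are given as CPM, read counts scaled to a common library size with TMM factors, when 1 gene is compared across libraries, and as the authors' RPKM, per kilobase of exon, when genes are compared with each other. Of 5 markers of immature CD34-positive cells 4 were at or above 1 CPM in KG1A, with MEIS1 absent or near 0 there and present in U937. In U937 2 of the 5 were at or above 1 CPM, MEIS1 and SPN. SPN was thus present in both lines, at 624 and 643 CPM in KG1A in PBS and 358 and 368 CPM in U937 in PBS. Of 7 monoblast markers 6 were at or above 1 CPM in U937, with MPO near 0. Of 9 markers of lymphocytes, epithelium, fibroblasts and erythroid cells, CD3E passed 1 CPM in KG1A and COL1A1 did in U937, while EPCAM, KRT19, MS4A1 and HBB were at 0 in all libraries. Several of these markers moved with dG. The summed monoblast markers went from 1037 and 1049 CPM to between 2198 and 2265 CPM in U937, with LYZ, for lysozyme, going from 24.7 and 22.7 CPM to 225 and 219 CPM. The summed immature-cell markers went from between 1701 and 1711 CPM to between 2091 and 2104 CPM in KG1A, and CD3E there went from 10.5 and 11.02 CPM to 21.8 and 20.95 CPM. Their part in the results below was not tested. Mitochondrially encoded genes took 9.12% and 9.19% of counts in KG1A in PBS against 8.01% and 8.30% in dG, and 9.76% and 9.83% in U937 in PBS against 8.18% and 7.93% in dG. This share moved with treatment in both lines, and its part in the results below was not tested.

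PPAT and PAICS lie head to head on chromosome 4, and their 5′ ends are 126 bases apart in the count table. RefSeq promoter windows (GRCh38.p14, 250 bases before to 50 after the start) were found for 8 of the 10 genes. None was found for ADSL and IMPDH2, which also fell by at least 2-fold in U937, so these were not searched. The windows of PPAT and PAICS share 236 bases, so 1 stretch of DNA serves as the start region of both. Windows were searched on both strands for CACGTG, the E-box bound by MYC and MAX among others, for CACGCG, a variant of it, and for GGGCGG, the GC box bound by SP1. CACGTG and CACGCG differ in letters and cannot match at the same place, and no GGGCGG match overlapped either of them. CACGTG occurred in 3 of the 8 windows (PPAT, PAICS and ATIC) against 7.256% of 35114 windows of this length, and the PPAT and PAICS matches are 1 and the same site. CACGCG occurred in PFAS among the 8, against 11.431% of all windows, and GGGCGG in 7 of the 8 against 44.954%. The GGGCGG matches of PPAT and PAICS are likewise the same sites, counted in both windows. PPAT, which holds the same CACGTG site as PAICS, changed by only -0.58 on the log2 scale in U937. Whether the motifs go with the size of the fall was not tested. The windows of PAICS (plus strand, also the start region of PPAT), ATIC (plus strand) and PFAS (plus strand) are shown because they hold such an E-box or variant and because these genes fell by at least 2-fold in U937, with CACGTG or CACGCG in capitals.
PAICS, chr4:56435502-56435801: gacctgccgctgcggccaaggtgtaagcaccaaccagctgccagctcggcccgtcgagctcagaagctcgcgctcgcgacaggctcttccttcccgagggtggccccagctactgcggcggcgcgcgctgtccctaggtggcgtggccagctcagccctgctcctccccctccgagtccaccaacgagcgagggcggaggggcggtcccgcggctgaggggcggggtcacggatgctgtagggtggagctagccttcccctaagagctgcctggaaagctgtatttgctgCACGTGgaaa
ATIC, chr2:215311809-215312108: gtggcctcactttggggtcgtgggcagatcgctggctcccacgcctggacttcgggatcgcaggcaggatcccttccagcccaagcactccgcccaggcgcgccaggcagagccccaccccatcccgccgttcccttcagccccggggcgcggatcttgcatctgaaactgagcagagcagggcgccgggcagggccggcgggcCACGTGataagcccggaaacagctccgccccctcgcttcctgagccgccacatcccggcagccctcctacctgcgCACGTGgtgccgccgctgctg
PFAS, chr17:8249039-8249338: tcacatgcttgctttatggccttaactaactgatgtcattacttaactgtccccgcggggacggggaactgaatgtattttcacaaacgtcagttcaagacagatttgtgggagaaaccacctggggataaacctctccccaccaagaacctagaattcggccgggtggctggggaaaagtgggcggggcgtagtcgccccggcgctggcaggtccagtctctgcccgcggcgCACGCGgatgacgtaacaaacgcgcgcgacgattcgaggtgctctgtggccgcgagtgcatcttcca
The site shared by PPAT and PAICS begins 41 bases into PAICS counted from its start as 1, and at position -182 of PPAT. ATIC has its matches at -46 and 30, and PFAS its CACGCG at -17. The PFAS start used by RefSeq lies 1671 bases inside the gene as the count table gives it. A match of letters is a description of the sequence and does not show that a factor binds.

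The first comparison asked how the mRNAs of the pathway differed between dG and PBS in U937. The mRNAs of all 6 enzymes up to IMP were lower in dG, with PFAS, PAICS and ADSL falling most, and of the mRNAs for guanine nucleotide synthesis IMPDH2 and GMPS fell, while IMPDH1 did not pass the test. The salvage gene HPRT1 fell as well. In all, 9 of the 10 genes were lower and 0 higher, where 31.5% of all genes tested were lower, 32.4% higher and 64% called in either direction (edgeR quasi-likelihood test, Benjamini-Hochberg adjusted p at most 0.05 over all genes). A fall of at least 2-fold was called in 5 of the 10 against 7.74% of all genes. Both dG libraries lay below both PBS libraries in 9 of the 10, as in 39.8% of all genes, and above them in 0, as in 39.2%. Of the genes called in U937, 50.7% were higher under TMM, 57.7% with DESeq2's size factors and 44.9% with library size alone, while 9 of the 10 were called under each. The median log2 fold change of the 10 was -0.96, against 0 for all genes tested. Because these are bulk samples, fewer cells of a type and less RNA per cell cannot be told apart.

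PPAT (ENSG00000128059, chromosome 4, 56393362 to 56435615, minus strand, GRCh38) encodes the amidotransferase that commits PRPP to purine synthesis. In U937 it lay at 55.9 and 53.3 CPM in PBS and at 34.8 and 38.5 CPM in dG, a log2 fold change of -0.58 ± 0.06 (standard error, as for every ± after a fold change). Both dG libraries were below both PBS libraries, and the fall was among the smallest of the 9 called. GART (ENSG00000159131, chromosome 21, 33503931 to 33543491, minus strand) encodes a single protein that carries several of the next activities. It went from 277 and 279 CPM to 156 and 164 CPM, a change of -0.80 ± 0.04, again without overlap. GART overlaps the start of SON on the opposite strand over 874 bases, and SON reached 16592 counts, so reads in that overlap could come from either gene, and their number was not measured.

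PFAS (ENSG00000178921, chromosome 17, 8247618 to 8270491, plus strand), the formylglycinamidine ribonucleotide synthase, fell most. It lay at 46.6 and 49.4 CPM in PBS and at 10.3 and 9.90 CPM in dG, a log2 fold change of -2.24 ± 0.07 (adjusted p = 5.97e-25), which left 21.1% of the PBS level. Only 1.35% of all genes tested had a fold change as low or lower. PAICS (ENSG00000128050, chromosome 4, 56435741 to 56464579, plus strand), a bifunctional enzyme of the middle steps, went from 416 and 397 CPM to 138 and 138 CPM, a change of -1.56 ± 0.03 (adjusted p = 3.61e-30). ADSL (ENSG00000239900, chromosome 22, 40346500 to 40390463, plus strand), adenylosuccinate lyase, which acts both on the way to IMP and on the way to AMP, went from 93.0 and 89.2 CPM to 30.6 and 31.9 CPM, a change of -1.55 ± 0.05. For these 3 genes the dG libraries kept between 21.1% and 34.2% of the PBS level and lay far from the PBS libraries. ATIC (ENSG00000138363, chromosome 2, 215311817 to 215349773, plus strand), which performs the last steps to IMP, went from 204 and 208 CPM to 100.2 and 96.5 CPM, a change of -1.07 ± 0.04.

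The pair of IMP dehydrogenase genes split in U937. IMPDH2 (ENSG00000178035, chromosome 3, 49024325 to 49029408, minus strand), the isoform that is induced in proliferating cells, went from 347 and 356 CPM in PBS to 143 and 134 CPM in dG, a log2 fold change of -1.34 ± 0.04 (adjusted p = 1.14e-27). IMPDH1 (ENSG00000106348, chromosome 7, 128392277 to 128410252, minus strand), the isoform regarded as constitutive, lay at 54.6 and 57.9 CPM in PBS and at 53.3 and 55.6 CPM in dG, and the groups overlapped. Its log2 fold change was -0.04 ± 0.05, with a 95% interval from -0.15 to 0.06 and an adjusted p = 0.482 in the edgeR test. Its sign depended on the scaling and turned positive with DESeq2's size factors, with no filter and with RPKM. GMPS (ENSG00000163655, chromosome 3, 155870536 to 155944026, plus strand), which aminates XMP to GMP, went from 177 and 178 CPM to 119 and 118 CPM, a change of -0.58 ± 0.04. HPRT1 (ENSG00000165704, chromosome X, 134460153 to 134520513, plus strand), a salvage enzyme for hypoxanthine and guanine and a common reference gene in expression assays, went from 153 and 149 CPM to 85.1 and 83.1 CPM, a change of -0.85 ± 0.04 (adjusted p = 3.65e-20).

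**Figure D1:**
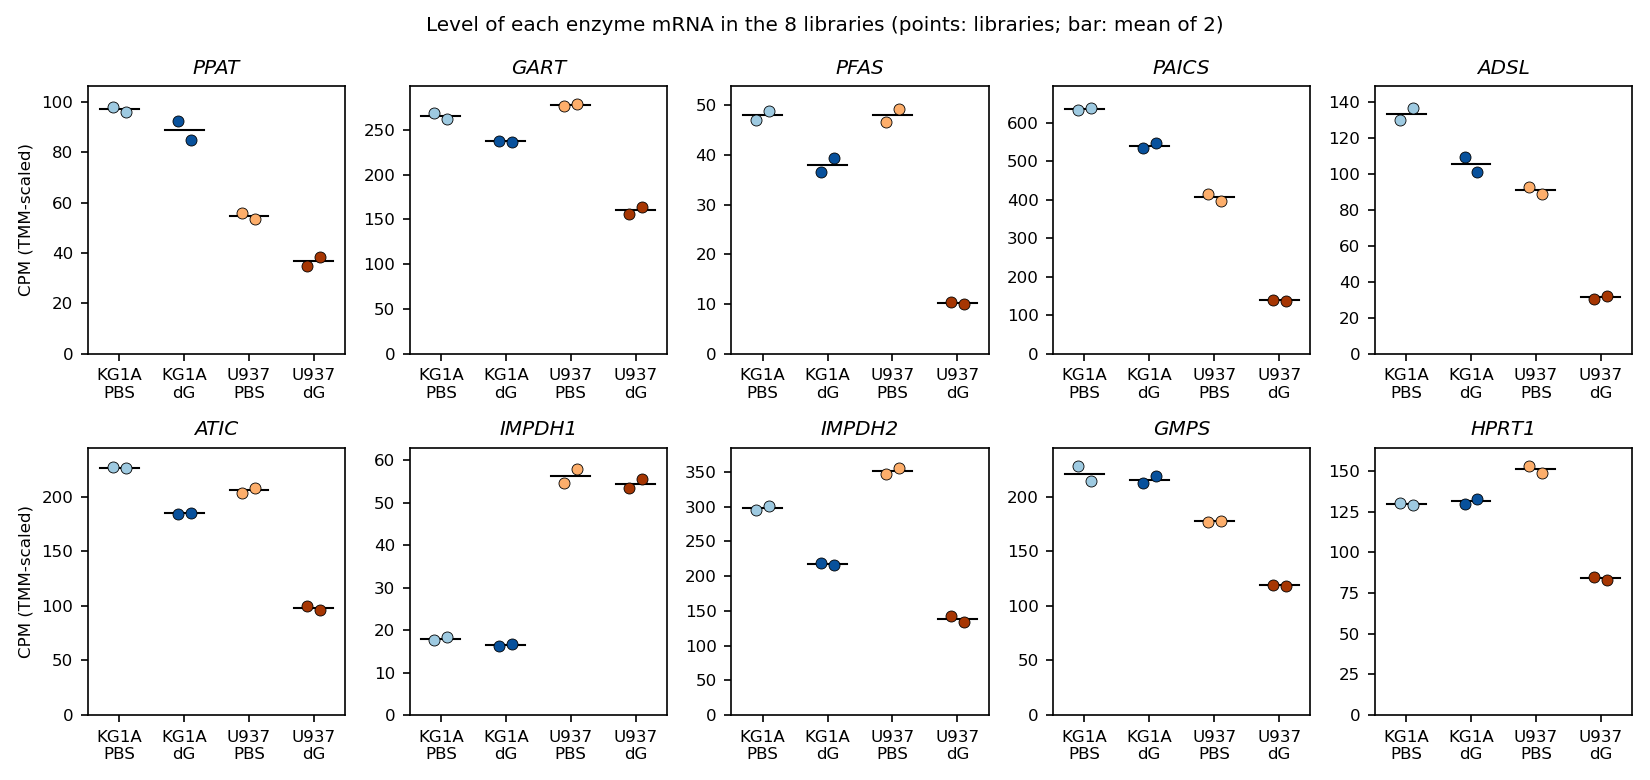
Level of each of the 10 mRNAs in CPM (vertical axes from 0) in the 8 libraries, by line and treatment; points are libraries and bars the mean of 2. In U937 the dG libraries of PFAS sit at 10.3 and 9.90 CPM against 46.6 and 49.4 in PBS, whereas those of IMPDH1 overlap the PBS libraries.

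The second comparison asked the same of KG1A, where the falls were smaller. IMPDH2, PFAS, ADSL and ATIC led, and 0 of the 10 fell by at least 2-fold, against 1.15% of all genes. In all, 7 of the 10 genes were lower and 0 higher, where 19.6% of all genes tested were lower, 29.6% higher and 49.1% called in either direction in KG1A. Both dG libraries lay below both PBS libraries in 8 of the 10, as in 29.6% of all genes, and above them in 0, as in 40.6%. The median log2 fold change of the 10 was -0.20, against 0.04 for all genes tested. The balance of calls among all genes in KG1A depended on scaling, with 60.2% of called genes higher under TMM, 50.8% under library size alone, 50.9% with no filter, 51.2% with KG1A fitted alone, 49.3% and 50.04% with RPKM, and 50.7% without either U937 dG library, and the number of the 10 called lower ran from 6 to 9 over the alternatives tried.

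In KG1A, IMPDH2 went from 296 and 301 CPM in PBS to 218 and 217 CPM in dG, a log2 fold change of -0.46 ± 0.03 (adjusted p = 7.78e-14), the most negative of the 10 in this line. PFAS went from 47.1 and 48.8 CPM to 36.5 and 39.3 CPM (-0.34 ± 0.06). ADSL went from 130.3 and 137 CPM to 109.7 and 101.04 CPM (-0.34 ± 0.04). These 3 genes kept 72.9% to 78.9% of their PBS level, with no overlap between the groups. ATIC lay at 227 and 226 CPM in PBS and at 184 and 185 CPM in dG (-0.29 ± 0.03). PAICS, the member with the most counts, lay at 634 and 637 CPM in PBS and at 533 and 546 CPM in dG (-0.24 ± 0.03). GART lay at 269 and 263 CPM in PBS and at 238 and 237 CPM in dG (-0.16 ± 0.03). The dG libraries of these genes were also all below the PBS libraries.

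PPAT in KG1A lay at 98.1 and 96.1 CPM in PBS and at 92.5 and 84.9 CPM in dG, a log2 fold change of -0.13 ± 0.05 (adjusted p = 0.0217 by edgeR). Its call ended when the first or the second PBS library was left out (adjusted p = 0.105 and 0.0505), when the second dG library was left out (-0.07, adjusted p = 0.339) and under DESeq2 (adjusted p = 0.0684). It moved to between -0.20 and -0.19 with library size alone, no filter, RPKM or KG1A fitted alone, and without the first KG1A dG library or either U937 dG library. IMPDH1 lay at 17.6 and 18.3 CPM in PBS and at 16.4 and 16.6 CPM in dG (-0.13 ± 0.07, adjusted p = 0.159). Both its dG libraries were the lower ones, but the difference did not pass the test. GMPS lay at 228 and 214 CPM in PBS and at 213 and 218 CPM in dG (-0.03 ± 0.04, 95% interval -0.11 to 0.04, adjusted p = 0.467). HPRT1 lay at 130.4 and 129 CPM in PBS and at 129.8 and 133 CPM in dG (0.02 ± 0.04, 95% interval -0.06 to 0.10, adjusted p = 0.717). In both genes the groups overlapped. IMPDH1 was called lower with library size alone (adjusted p = 0.0321), with KG1A fitted alone (0.0473), with RPKM (0.0152 and 0.0128) and without U937 dG replicate 1 or 2 (0.0328 and 0.0326). GMPS was called lower with KG1A fitted alone (adjusted p = 0.0285), without a filter (0.0365), under library size alone (0.0176) and without U937 dG replicate 1 or 2 (0.0277 and 0.0273). HPRT1 turned negative, at -0.05 to -0.04, under library size alone, no filter, RPKM, KG1A fitted alone or without either U937 dG library, and was not called under any of them.

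**Figure D2:**
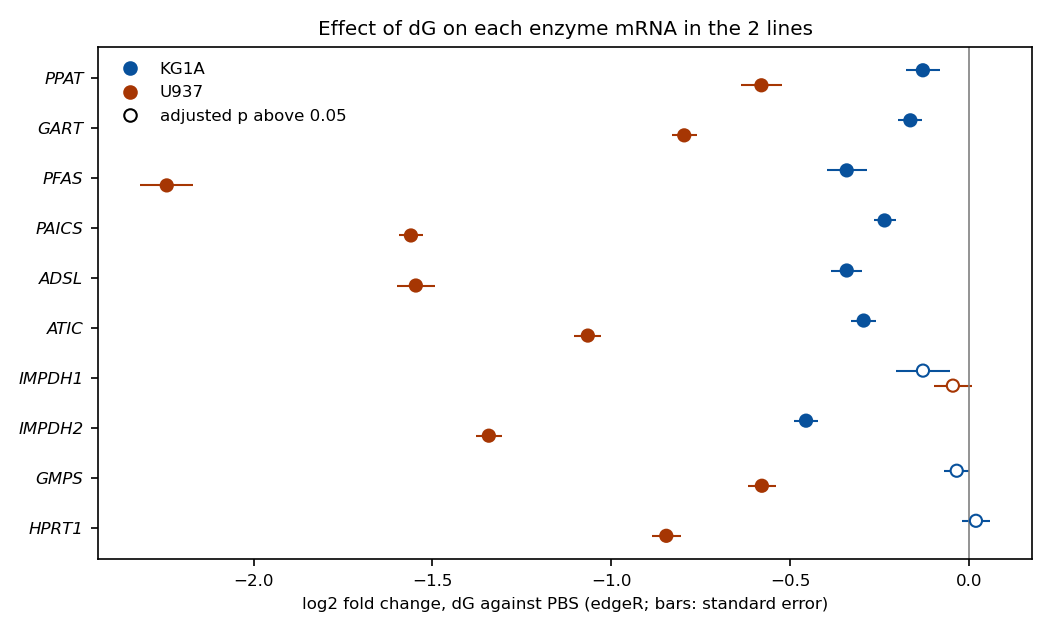
Log2 fold change of dG against PBS (horizontal axis, bars are standard errors) for the 10 genes in pathway order, in KG1A and U937; open points did not pass the test. PFAS sits at -2.24 in U937 and -0.34 in KG1A. IMPDH1 sits at -0.04 in U937 and -0.13 in KG1A and did not pass the test in either.

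The third comparison asked whether the effect of dG differed between the lines. The U937 effect was more negative than the KG1A effect for 9 of the 10 genes and more positive for 0, where 26.4% of all genes tested differed in the negative direction, 17.6% in the positive and 44.1% in either. A difference of at least 2-fold downward was called in 3 of the 10 against 7.04% of all genes. Of the genes that differed, 40.0% were in the positive direction under TMM, 50.8% with DESeq2's size factors, 51.6% with DESeq2, 53.9% with no filter, 55.6% and 55.0% with RPKM, and 54.0% and 54.4% without the first or second U937 dG library. The median difference was -0.82 on the log2 scale, against -0.10 for all genes tested. PFAS differed most, by -1.90 ± 0.10 (adjusted p = 1.15e-18). PAICS followed at -1.32 ± 0.05 and ADSL at -1.20 ± 0.07. IMPDH2 (-0.89 ± 0.05), HPRT1 (-0.87 ± 0.06), ATIC (-0.77 ± 0.05), GART (-0.63 ± 0.05), GMPS (-0.54 ± 0.05) and PPAT (-0.45 ± 0.07) completed the 9. The PPAT difference moved to -0.27 with RPKM and a pseudocount of 1, and to -0.25 without U937 dG replicate 1. For IMPDH1 the difference was 0.08 ± 0.09 (95% interval -0.10 to 0.27, adjusted p = 0.505), and it was called with RPKM alone (adjusted p = 0.0369 and 0.0336 at pseudocounts of 1 and 0.1). The order of the genes also differed, since IMPDH2 had the lowest fold change in KG1A and PFAS in U937.

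The fourth comparison set the lines against each other in PBS. The 10 genes had no common direction there. U937 was lower in 5 genes and higher in 3 of the 10, where 40.8% and 41.4% of all genes tested were lower and higher and 82.3% called in either direction, and the median difference was -0.07 against 0.01 for all genes. Both U937 libraries lay below both KG1A libraries in 5 of the 10, as in 44.9% of all genes, and above them in 4, as in 45.5%. A level at least 2-fold lower in U937 was called in 0 of the 10, against 21.2% of all genes. PPAT (-0.83 ± 0.05) and PAICS (-0.64 ± 0.03) were lower in U937, as were ADSL (-0.55 ± 0.04), GMPS (-0.32 ± 0.04) and ATIC (-0.14 ± 0.03). IMPDH1 was 3.11-fold higher in U937 (1.64 ± 0.06, adjusted p = 4.56e-24), from 17.6 and 18.3 CPM in KG1A to 54.6 and 57.9 CPM. IMPDH2 (0.24 ± 0.03) and HPRT1 (0.22 ± 0.04) were higher in U937 by less. GART (0.06 ± 0.03, adjusted p = 0.0801) and PFAS (0.00 ± 0.05, 95% interval -0.11 to 0.11) did not pass the test. GART was called when the second U937 PBS library (adjusted p = 0.0427) or either U937 dG library (both 0.0340) was left out. PFAS thus started from 47.1 and 48.8 CPM in KG1A and from 46.6 and 49.4 CPM in U937, and these libraries overlapped.

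Per kilobase of exon, the pathway spans more than an order of magnitude. In KG1A in PBS the authors' RPKM ran from 109 ± 1.54 (SD, n = 2) for IMPDH2 through PAICS (85.9 ± 0.53), HPRT1 (81.2 ± 0.44), ATIC (58.7 ± 0.04), GART (34.9 ± 0.53), GMPS (25.3 ± 1.05), ADSL (19.1 ± 0.70) and PPAT (18.2 ± 0.22) to PFAS (7.53 ± 0.21) and IMPDH1 (4.99 ± 0.15). No neighbours in that order overlapped. In U937 in PBS the order was IMPDH2 (124.7), HPRT1 (91.7), PAICS (53.3), ATIC (51.7), GART (35.3), GMPS (19.7), IMPDH1 (15.1), ADSL (12.6), PPAT (9.89) and PFAS (7.30), and PAICS and ATIC overlapped. Exon lengths are totals over all annotated exons of a gene, 7111 bases for ADSL and 1624 for HPRT1, so RPKM of genes with many alternative exons is understated.

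Treatment changed that order. In KG1A in dG HPRT1 (78.5 ± 1.20 RPKM) stood above IMPDH2 (76.1 ± 0.60) and PPAT (15.8 ± 1.01) above ADSL (14.4 ± 0.87), with no overlap between neighbours. In U937 in dG HPRT1 (53.2 ± 1.39 RPKM) and IMPDH2 (51.3 ± 2.70) overlapped, PAICS (18.8 ± 0.25) had dropped below ATIC (25.7 ± 0.94) and GART (21.2 ± 0.56), and PFAS (1.60 ± 0.06) was last. IMPDH1, at 15.3 ± 0.30 RPKM, stood above GMPS (13.7 ± 0.22) there. Summed over the 10 genes, RPKM was 444 and 446 in KG1A in PBS, 363 and 364 in KG1A in dG, 424 and 418 in U937 in PBS, and 215 and 209 in U937 in dG. As a share of all counts, the 10 genes took 0.211% and 0.212% in KG1A in PBS against 0.173% and 0.174% in dG, and 0.187% in each U937 PBS library against 0.0844% and 0.0851% in dG.

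**Figure D3:**
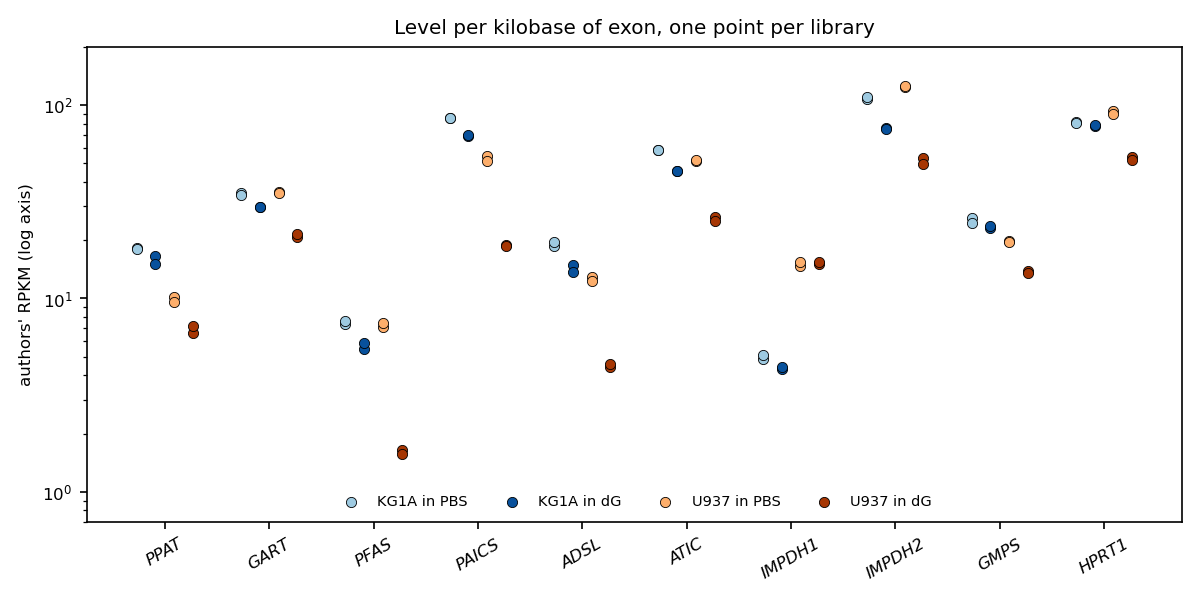
Authors' RPKM of each of the 10 genes on a log axis, 1 point per library, by line and treatment. IMPDH2 has the highest level in PBS in both lines (109 and 124.7 RPKM), and PFAS in U937 in dG the lowest, at 1.60 RPKM.

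Ratios within pairs of related genes followed from these unequal changes and do not depend on library scaling. IMPDH1 made up 4.32% and 4.42% of the summed IMPDH1 and IMPDH2 RPKM in KG1A in PBS and 5.37% and 5.49% in dG. In U937 it made up 10.6% and 10.97% in PBS and 22.1% and 23.9% in dG. The dG libraries lay above the PBS libraries in both lines. For the head-to-head pair, PAICS RPKM per PPAT RPKM was 4.67 and 4.79 in KG1A in PBS and 4.17 and 4.66 in dG, and in U937 it was 5.38 and 5.39 in PBS and 2.87 and 2.58 in dG. PAICS and PPAT, which share a start region, thus fell unequally in U937. With 2 libraries against 2, an exact two-sided permutation test of a single ratio cannot go below p = 0.333, so these are descriptions.

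**Figure D4:**
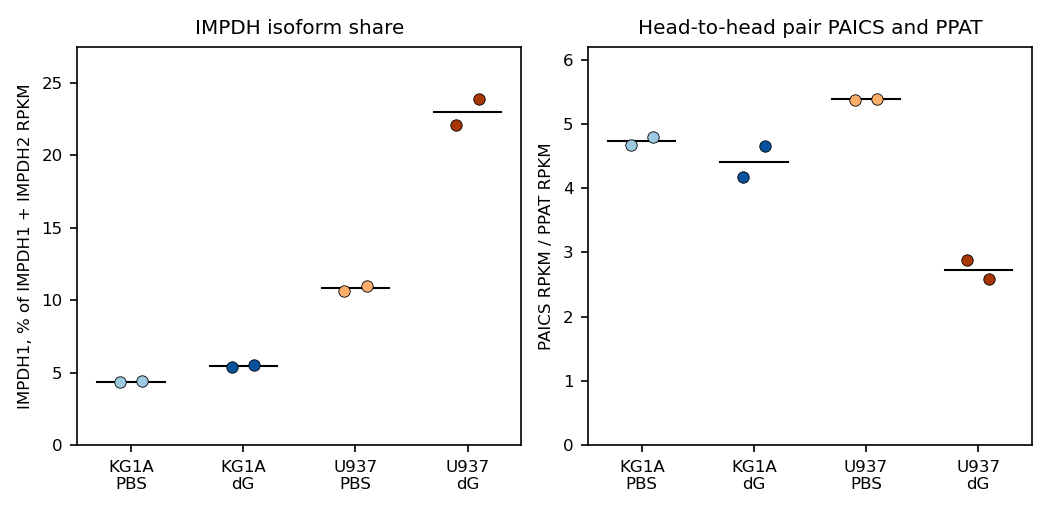
Left, IMPDH1 as a percentage of IMPDH1 plus IMPDH2 RPKM; right, PAICS RPKM divided by PPAT RPKM; points are libraries, bars the mean of 2, and both axes start at 0. The IMPDH1 share is 22.1% and 23.9% in U937 in dG, and the PAICS ratio is 2.87 and 2.58 there.

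Other genes of the pathway were taken from 5 lists of 40 genes, of which 37 were tested. Their counts stand beside those of all genes tested, of which 29.6% were higher and 19.6% lower in KG1A in dG, 32.4% and 31.5% in U937 in dG, 17.6% and 26.4% in the difference between the lines, and 41.4% and 40.8% in U937 against KG1A in PBS. PRPP synthetases and their associated proteins, which supply the pathway's starting substrate, moved in both directions. In KG1A 2 of 4 were higher and 1 lower (median 0.09), with PRPS1 at -0.24 ± 0.04, PRPS2 at 0.22 ± 0.04 and PRPSAP1 at 0.14 ± 0.05. In U937 2 were higher and 2 lower (median 0.02), with PRPSAP1 at 0.79 ± 0.05, PRPS1 at -0.36 ± 0.04 and PRPSAP2 at 0.34 ± 0.05. The U937 effect differed from the KG1A effect upward in 2 and downward in 1, with PRPSAP1 at 0.65 ± 0.07, PRPS2 at -0.53 ± 0.06 and PRPSAP2 at 0.31 ± 0.09. In PBS 3 were higher and 1 lower in U937, with PRPSAP2 at 1.37 ± 0.06, PRPS2 at 1.07 ± 0.04 and PRPS1 at 0.69 ± 0.04.

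The folate enzymes donate the formyl groups used by GART and ATIC. Of 11 tested, 8 were lower and 2 higher in U937 in dG, with a median of -0.79, where 31.5% of all genes tested were lower and 32.4% higher. MTHFD1L (-1.63 ± 0.05) and MTHFD1 (-1.32 ± 0.04), the formate-producing and formate-using enzymes, led the falls. In KG1A 6 were lower and 4 higher (median -0.16), and the rises included ALDH1L2 (1.48 ± 0.09) and SHMT2 (0.45 ± 0.05), both mitochondrial enzymes. Between the lines, 7 of 11 differed downward and 2 upward, with ALDH1L2 at -2.75 ± 0.64 (U937 levels were 0.285 and 0.113 CPM, a handful of reads) and MTHFD1L at -1.54 ± 0.06. In PBS 8 were lower and 3 higher in U937, with ALDH1L2 at -4.69 ± 0.22, MTHFD2L at -2.79 ± 0.09 and SHMT2 at 1.94 ± 0.04.

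In the AMP branch and among adenylate kinases, 4 of 7 were higher and 2 lower in KG1A (median 0.30) and 2 higher and 3 lower in U937 (median 0.07). ADSS2, adenylosuccinate synthase (ADSS in the count table), which feeds ADSL, fell in U937 by 0.85 ± 0.05 on the log2 scale and did not pass the test in KG1A (-0.09 ± 0.04, adjusted p = 0.0816), and its effect differed between the lines by -0.76 ± 0.06. Its paralogue ADSS1 (ADSSL1 in the count table) rose in both lines from low levels (1.97 ± 0.34 in KG1A, from 0.332 CPM, and 1.19 ± 0.17 in U937). In KG1A AK1 rose from 0.534 to 1.61 CPM (1.58 ± 0.30) and AK6 fell (-0.38 ± 0.06). AK4, a mitochondrial adenylate kinase, rose in KG1A (0.37 ± 0.04) and fell in U937 (-0.73 ± 0.08). Between the lines 2 effects differed upward and 3 downward, with AK4 at -1.10 ± 0.09 and AK6 at 0.45 ± 0.08, and in PBS 3 genes were higher and 2 lower in U937, with ADSS1 at 2.72 ± 0.30 and AK4 at -1.92 ± 0.05.

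Downstream of GMP, the guanylate kinase, GMP reductase and nucleoside diphosphate kinase list was mixed, with 2 of 8 higher and 2 lower in KG1A (median 0.04) and 3 higher and 2 lower in U937 (median -0.02). GMPR, a GMP reductase that returns GMP to IMP and so opposes IMPDH and GMPS, rose from 8.03 to 19.0 CPM in KG1A (1.24 ± 0.09) and from 42.6 to 84.5 CPM in U937 (0.99 ± 0.05). NME1, a nucleoside diphosphate kinase, changed by -0.63 ± 0.05 in KG1A and -1.48 ± 0.07 in U937, although NME1 and NME2 are adjacent, closely similar genes whose reads may be divided arbitrarily. NME3 rose in KG1A (0.67 ± 0.15), and GUK1, which phosphorylates GMP, rose in U937 (0.22 ± 0.06). Effects differed upward in 2 and downward in 3, with NME1 at -0.85 ± 0.09, NME6 at 0.36 ± 0.13 and NME4 at -0.30 ± 0.09. In PBS 1 was higher and 5 lower in U937, with NME3 at -3.23 ± 0.26, GMPR at 2.40 ± 0.07 and NME2 at -1.47 ± 0.33. The NME3 and NME2 values rest on few reads, at means of 0.348 and 0.443 CPM in U937 in PBS.

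In salvage and breakdown 7 of 9 genes were tested, with 3 higher and 3 lower in KG1A (median 0.09) and 2 higher and 5 lower in U937 (median -0.20). APRT, the adenine counterpart of HPRT1, changed by -1.03 ± 0.06 in KG1A and -0.96 ± 0.07 in U937, so that in KG1A it fell where HPRT1 was not called. AMPD3, an AMP deaminase, rose in both lines (0.58 ± 0.05 in KG1A and 0.90 ± 0.05 in U937). NT5C2, a nucleotidase acting on IMP and GMP, also rose in both (0.46 ± 0.04 and 0.55 ± 0.03), and adenosine kinase ADK fell in U937 (-0.70 ± 0.05). Effects differed upward in 1 and downward in 3, with ADA at -0.65 ± 0.06, ADK at -0.56 ± 0.06 and PNP at -0.38 ± 0.07. In PBS 1 was higher and 5 lower in U937, with AMPD2 at -0.76 ± 0.05, APRT at -0.73 ± 0.06 and PNP at -0.56 ± 0.05.

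**Figure D5:**
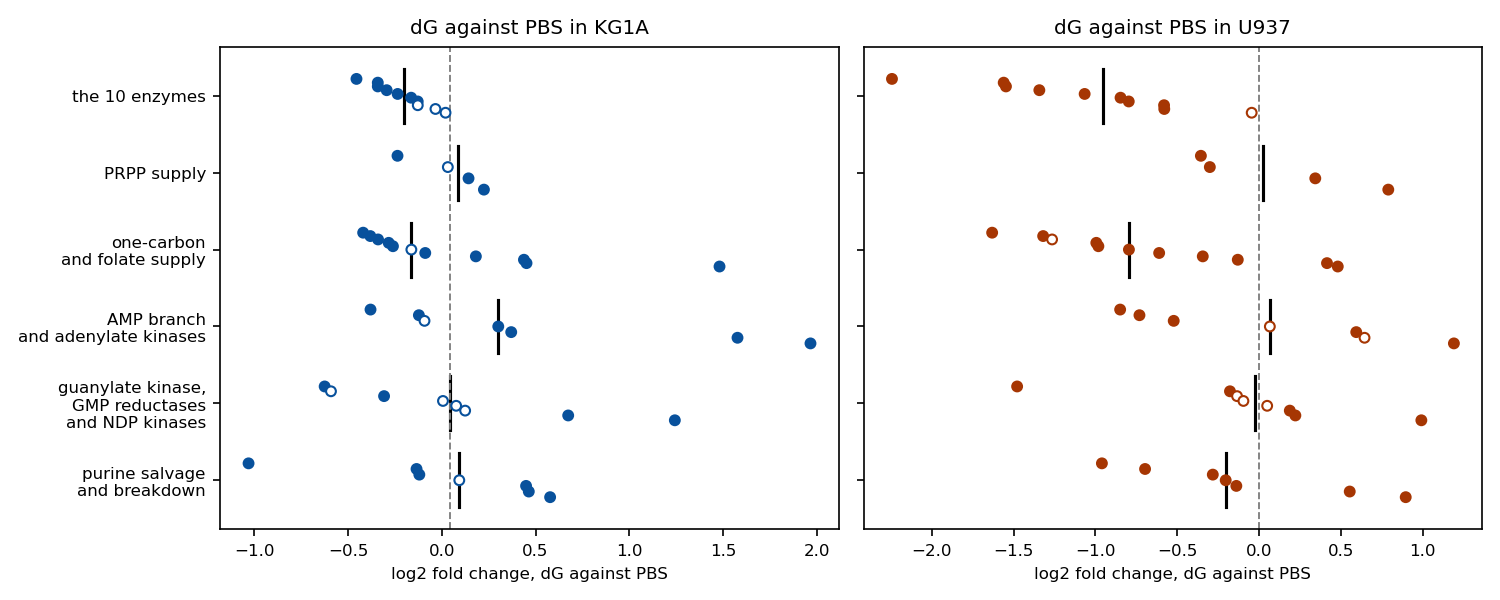
Log2 fold change of dG against PBS in KG1A (left) and U937 (right) for the 10 enzymes and 5 further lists; each point is a gene, open points did not pass the test, black bars are list medians and the dashed line is the median of all genes tested. The median of the 10 enzymes lies at -0.20 in KG1A and -0.96 in U937, and that of the folate list at -0.16 and -0.79.

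MYC, a transcription factor whose known targets include genes of nucleotide synthesis, went from 518 and 513 CPM to 416 and 402 CPM in KG1A (-0.33 ± 0.03) and from 228 and 227 CPM to 20.8 and 19.1 CPM in U937 (-3.51 ± 0.05). Its part in the changes of the 10 genes was not tested. Among 7807 candidate genes (mean log2 CPM 4 or higher), the 5 whose centred log2 CPM over the 8 libraries lay nearest to the median profile of the 10 enzymes were TTPAL, HNRNPU, POLR1E, FARSA and the pseudogene API5P1, at root mean square distances of 0.04 to 0.06 on the log2 scale. Their fold changes on that scale ran from -0.23 to -0.14 in KG1A and from -1.10 to -0.93 in U937. These genes were picked for nearness to that profile in the same 8 libraries. Fold changes close to the medians of the 10 enzymes therefore follow from the choice. ATIC was the member nearest to that profile (0.05) and IMPDH1 the farthest (1.16).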

How the data were processed

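RNA from 8 libraries (2 lines, 2 treatments, 2 libraries each) was sequenced from Kapa mRNA libraries, per the labels' protocols. The authors deposited read counts for 57992 genes and an RPKM table. The submitters' processing notes list HTSeq 0.11.2, TopHat2, bcl2fastq 2.18.0.12 and hg38 without roles; annotation release, strand setting and multi-mapping rule are not given in the sources used here. Recomputing the deposited RPKM from the counts, exon lengths and edgeR's TMM factors over all genes gave the same values within 0.000128%.

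The two-sided quasi-likelihood test of edgeR 4.0.16 in R 4.3.3 was applied to the deposited counts after filterByExpr left 18314 genes, with TMM factors and 1 mean per line and treatment over all 8 libraries (4 residual and 31.0 prior degrees of freedom). Benjamini-Hochberg adjustment covered every gene tested, and calls needed an adjusted p of at most 0.05. Pseudogene copies of members have counts of their own (PAICSP4 reached 2062), so reads may be split between them, and ADSL overlaps SGSM3 on the same strand. Library totals of 21053724 to 31135338 make 1 count 0.0321 to 0.0475 CPM before TMM scaling; this covers counting error only, and molecular identifiers are not mentioned in the labels.

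The members and lists were chosen with earlier results of these data known. Named genes were all 10 members, up to 3 called genes per list and comparison with the largest change, the 5 nearest profiles and MYC; some items are not reported here. Alternatives were other size factors, no filter, DESeq2 1.42.0, limma 3.58.1 on log2 RPKM with pseudocounts of 1 and 0.1, each line alone, a replicate block, leaving out each library, and, chosen after seeing the data, adding pseudogene copies to members.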

Additional observations from a re-analysis of the deposited data

Results flagged for a closer look

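The effect of dG differed between KG1A and U937, by a test of the difference itself in the joint edgeR model, for 9 of the 10 enzymes, all in the negative direction, where 26.4% of all genes tested differed in that direction and 44.1% in either. The U937 effect minus the KG1A effect was -1.90 for PFAS, -1.32 for PAICS, -1.20 for ADSL, -0.89 for IMPDH2, -0.87 for HPRT1, -0.77 for ATIC, -0.63 for GART, -0.54 for GMPS and -0.45 for PPAT on the log2 scale, with adjusted p-values from 3.74e-23 to 3.57e-06. With 2 libraries a group, no group was large enough to be searched for a single library standing apart.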

How the results depend on the processing

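Over 18 alternatives, 620 of 660 values for single members kept their direction and their side of the threshold, 16 passed the threshold newly, 4 lost it and 20 changed sign. No called value changed sign. The 4 lost calls were all of PPAT in KG1A. Members called ran from 6 to 9 in KG1A, 9 to 9 in U937, 9 to 10 for the difference between lines and 8 to 9 between lines in PBS. Values that changed sign were those of HPRT1 in KG1A (0.02 as reported), at -0.0448 with library size alone, -0.0479 with no filter, -0.0472 and -0.0478 with RPKM at pseudocounts of 1 and 0.1, -0.0401 with KG1A fitted alone and -0.0467 to 0.0376 when libraries were left out. IMPDH1 in U937 (-0.04 as reported) stood at 0.0454 with DESeq2's size factors, 0.0449 with DESeq2, 0.0154 with no filter, 0.0136 and 0.0144 with RPKM and -0.0929 to 0.0446 with libraries left out. GMPS in KG1A ranged from -0.100 to 0.00690 with libraries left out. PFAS between lines in PBS stood at 0.00185 with library size alone, 8.35e-05 with the replicate block and -0.0300 to 0.0426 with libraries left out. The cause was not tested. For the difference between lines, DESeq2's size factors moved the median of all genes from -0.10 to 0.00 and that of the 10 enzymes from -0.82 to -0.72. With no filter, which also changes the genes tested, these medians were 0.05 and -0.69. Leaving out libraries gave 7474 to 9028 genes called in KG1A and 10492 to 11934 in U937. With the replicate block, 8908, 11625, 7989 and 15013 genes were called in the 4 comparisons against 8994, 11712, 8071 and 15065, and members called were 7, 9, 9 and 8, as without it. The labels do not say that a number marks a shared culture. Across tested genes, deviations between replicates in PBS were correlated with the same-numbered deviations in dG, not the levels themselves. These correlations were -0.05 in KG1A and 0.01 in U937. The lowest count of any member in any library was 204, for PFAS in U937 in dG.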
